A study of Rattus norvegicus with 20 samples.

Results

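The 12 arrays of rat embryonic testis exposed in utero, of 20 arrays in the series, were taken as 1 experiment: 6 arrays of testes exposed to vinclozolin against 6 of testes exposed to the vehicle, with the stage of the embryo as a blocking factor. They were chosen by their titles, which give the stage (E13, E14 or E16), the tissue and the treatment. Pregnant Sprague-Dawley rats received vinclozolin at 100 mg per kg per day in DMSO, or DMSO alone, by injection on each day from E8 to E14. Gonads were taken at E13, E14 or E16, so the E13 testes were collected before the injections ended and the E16 testes 2 days after the last one. Each of the 6 groups (vehicle and vinclozolin at each stage) had 2 arrays that the labels call biological replicates. The sources used here do not say how many embryos, litters or dams went into an array, so a p-value here reflects array-to-array spread, which may be partly technical. Sex was assigned from a PCR for Sry on tail DNA, and the labels name no mutation or transgene. The other 8 arrays are of E13 testes cultured for 3 days with vinclozolin (50 µM), flutamide (0.5 µM) or their vehicles, DMSO and ethanol, and are used only where stated.

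Vinclozolin is a dicarboximide fungicide whose metabolites block androgen action, as the drug flutamide does. In the rat the stages sampled span the change from an indifferent gonad to a testis: Sertoli cells form cords around the germ cells and secrete anti-Müllerian hormone, peritubular cells surround the cords, and fetal Leydig cells then begin to make testosterone in the interstitium. Androgens act on transcription through androgen response elements in DNA, whose core is the hexamer AGAACA and its inverse TGTTCT spaced by 3 bases. The questions were whether any transcript differed between exposed and vehicle testes over all stages, which transcripts lay on the same side of vehicle at every stage, and how large an effect these arrays leave possible.

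Several arrays stood apart from others of their group. Xist, the noncoding RNA of the inactive X chromosome, had a signal of 758.6 and 896 on the E13 arrays numbered 1 (vehicle and vinclozolin) against 20.4 and 17.9 on those numbered 2, and of 174.9, 184.4, 32 and 489.9 on the E14 arrays (2 vehicle, then 2 vinclozolin), although all were labelled testis; on the E16 arrays it was 2.4 to 16.6. The Y-linked gene Eif2s3y was at 902.6 or more on all 12 arrays. Amh, the hormone of Sertoli cells, was at 106 and 372.4 on the E13 arrays numbered 1 and at 1484.7 and 1102.2 on those numbered 2. On the E14 vehicle array numbered 1 Amh was at 1553.9 against 4892.5 to 5795.5 on the other E14 arrays, and the immediate early gene Fos was at 1534.6 against 18.3 to 289.2. Correlations between the log2 values of the arrays of a group were 0.969 to 0.982, and the 3'/5' signal ratio of actin was 1.73 to 3.47. The number of arrays limits the precision of all values here.

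No probe set passed the test of vinclozolin against vehicle over the 3 stages. Values were fitted on the scale of log2(signal + 16) with limma, and of 21128 probe sets tested 0 (percent called 0) reached an adjusted p of 0.05 in either direction (Benjamini-Hochberg). The smallest adjusted p was 0.999 and the smallest unadjusted p 0.00039. At an unadjusted p under 0.05 there were 532 probe sets, or 2.52% of those tested, of which 380 were above vehicle and 152 below. That is fewer than the 5% that evenly spread p-values would give. In the same fit 4696 probe sets differed between E14 and E13, 3541 between E16 and E13 and 8544 between E16 and E14 at an adjusted p under 0.05, over both treatments. The effect of vinclozolin did not differ detectably between stages either: 0 probe sets passed a moderated F test of stage dependence, with a smallest adjusted p of 0.99994 and 508 at an unadjusted p under 0.05.

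**Figure D1:**
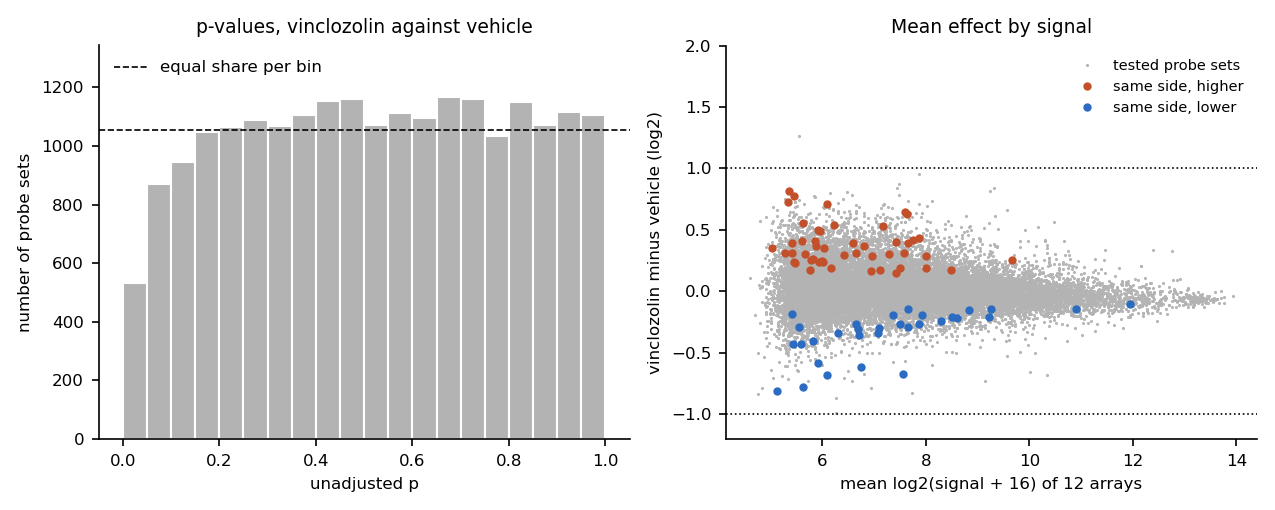
Left, the number of probe sets in each bin of unadjusted p (width 0.05) from the limma fit of 12 arrays; the dashed line is an equal share per bin, and the first bin holds 532. Right, the effect of vinclozolin (log2, mean over 3 stages) of each of 21128 probe sets against its mean log2(signal + 16), with the 79 same-side probe sets coloured (48 higher, 31 lower); the dotted lines mark 2-fold, and 2 probe sets lie beyond them.

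The same-side genes were those for which both vinclozolin arrays lay above both vehicle arrays, or below both, at E13, at E14 and at E16. This rule uses the contrast itself, so what follows describes its members and tests nothing. It held for 79 of the 21128 probe sets (0.374%), 48 above vehicle (0.227%) and 31 below (0.147%). Of these, 54 had 1 gene symbol, and for 44 genes (0.389% of the 11301 genes tested), 24 above and 20 below, the probe set was the one of highest signal that stood for its gene. A looser rule, the same sign of the mean difference at all 3 stages, held for 4919 probe sets (23.3%). At a single stage the arrays did not overlap for 10.8% (higher) and 13.1% (lower) of probe sets at E13, 14% and 13.1% at E14, and 24.1% and 15.3% at E16. A further 2545 of the 21128 probe sets were on opposite sides of vehicle, without overlap, at different stages. The differences of the 79 were small, from 0.102 to 0.818 in size on the log2 scale with a median of 0.303. Since the rule chose them for this contrast, the intervals given for them below describe the spread of the arrays and support nothing. The smallest gap between the treated and the vehicle arrays at any stage, which sets the margin of the rule, had a median of 0.02 log2 among the higher and 0.03 among the lower members. Just inside the rule lay a probe set without a gene symbol, above vehicle, with a gap of 0.0018 and Dusp2, below, with 0.0007; just outside lay another unnamed probe set with 0 and the pyruvate carboxylase gene Pc with -0.0049. If a gap of 0.2 was required at each stage, 1 probe set above vehicle remained, that of Noxo1, and 1 below, without a gene symbol. The members tended to be dim: 42 of 79 (53.2%) reached the 40th percentile of all 12 arrays, against 15274 of all 21128 (72.3%). Of the 79, 11 reached that percentile on arrays of 1 treatment alone, the one in which they were high (6 above vehicle, 5 below), so they entered the fit only by differing; among the named genes these are Noxo1, Grm8, Lgr6, Cd247, Anapc10 and Aldh1l2.

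The split between directions depended on how the arrays were scaled. As deposited, 48 of the 79 (60.8%) were above vehicle; after quantile normalization 74 probe sets met the rule, 26 above (35.1%) and 48 below. The lists shared 33 probe sets, 14 above and 19 below, which are 41.8% of the first and 44.6% of the second. All 79 effects kept their sign. Among the named genes below, Noxo1, Grm8, Slu7, Dgke, Slc7a7, Sparcl1, Anapc10, Pde4d, Trim36, Aldh1l2, Kbtbd3, Zfp729b, Macir and Irak1bp1 met the rule on both scales, and LOC102549521, Gramd1b, Lgr6, Rttn, Cd247, Cela3b, Mir351, Cd1d1, Apc2, Col4a6, Dusp2, LOC102555465, Tbc1d25, Map3k20 and Pmvk only on the deposited one.

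**Figure D2:**
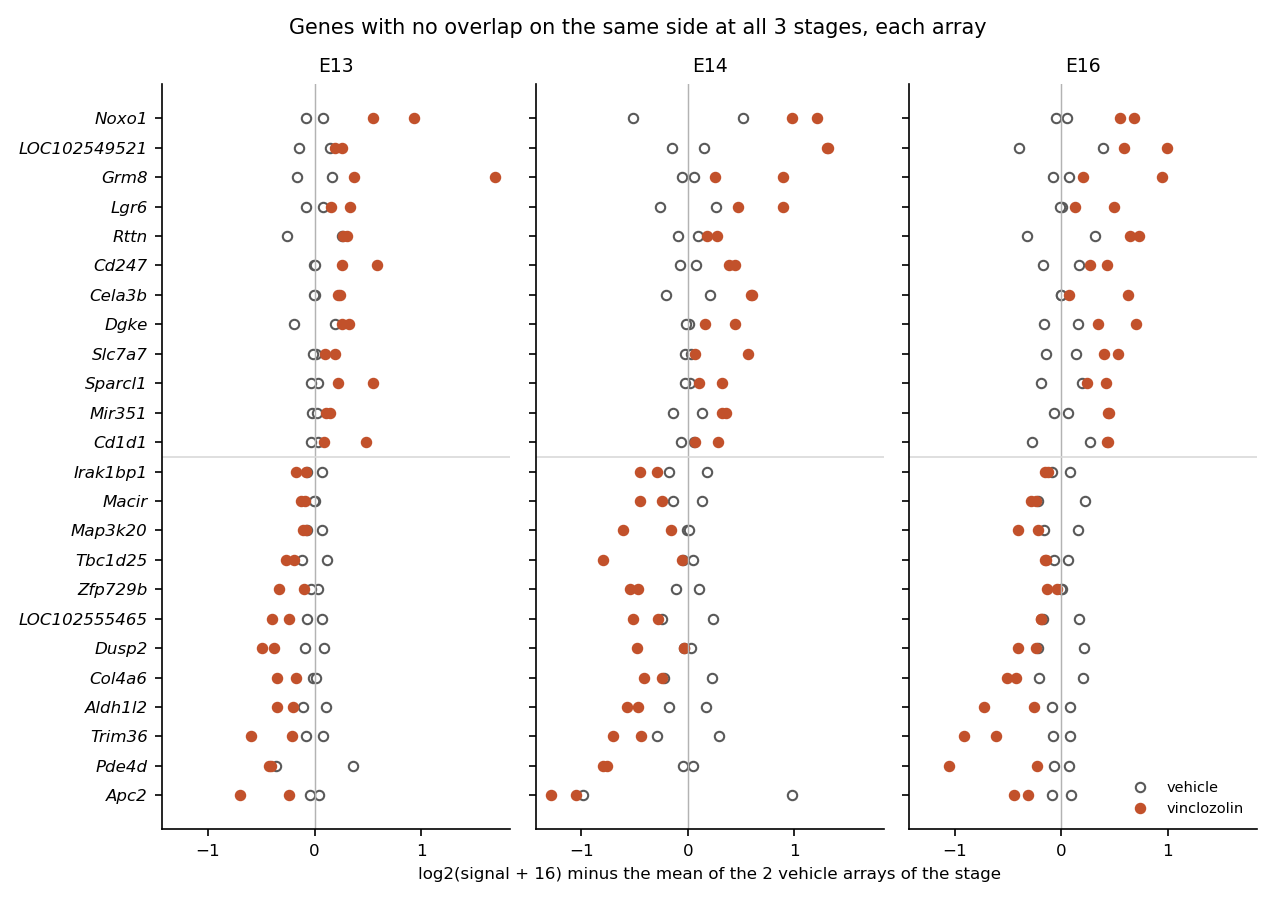
The 24 genes whose highest-signal probe set met the same-side rule with the largest mean difference above vehicle (12, upper part) or below it (12, lower part), array by array, as log2(signal + 16) minus the mean of the 2 vehicle arrays of the stage; open points are vehicle and filled points vinclozolin arrays, 2 of each per stage. In each row the filled points lie on 1 side of the open points at all 3 stages, with gaps as small as 0.0007 (Dusp2 at its closest stage), and of these genes Noxo1 alone has a gap of at least 0.2 at each stage.

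Promoters are shown for 3 same-side genes that met the rule on both scales and that hold the hexamer of the androgen response element, because metabolites of the compound block androgen action. They are the ones on the + strand; Grm8, Dgke, Zcchc9 and Anapc10, on the - strand, also met the rule on both scales and hold the hexamer. The sequences are from RefSeq (GRCr8, + strand), run from 250 bases before to 50 after the annotated start, and have AGAACA or TGTTCT in capitals. Noxo1 and Slu7, above vehicle, each have 1 hexamer, and the first of the 5 listed starts of Pde4d, below vehicle, has 2.
Noxo1, chr10:14227955-14228254: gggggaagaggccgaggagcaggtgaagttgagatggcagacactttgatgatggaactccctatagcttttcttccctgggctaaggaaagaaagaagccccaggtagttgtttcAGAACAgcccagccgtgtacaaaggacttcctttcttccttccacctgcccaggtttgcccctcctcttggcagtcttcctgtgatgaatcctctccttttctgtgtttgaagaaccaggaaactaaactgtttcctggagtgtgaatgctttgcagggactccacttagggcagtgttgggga
Slu7, chr10:28409615-28409914: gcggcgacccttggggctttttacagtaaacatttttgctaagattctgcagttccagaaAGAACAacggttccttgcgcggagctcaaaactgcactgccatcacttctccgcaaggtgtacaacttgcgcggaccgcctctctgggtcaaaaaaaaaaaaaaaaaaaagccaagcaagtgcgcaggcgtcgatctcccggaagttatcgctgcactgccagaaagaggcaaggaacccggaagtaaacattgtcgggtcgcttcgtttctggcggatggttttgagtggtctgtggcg
Pde4d, chr2:42161239-42161538: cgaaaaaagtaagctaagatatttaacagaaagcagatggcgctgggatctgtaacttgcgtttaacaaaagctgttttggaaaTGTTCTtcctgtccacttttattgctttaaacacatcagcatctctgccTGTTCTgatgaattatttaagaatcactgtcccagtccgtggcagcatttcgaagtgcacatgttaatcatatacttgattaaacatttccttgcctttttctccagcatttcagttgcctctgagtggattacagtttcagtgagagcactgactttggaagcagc
The hexamer begins at -134 in Noxo1, at -190 in Slu7 and at -166 and -117 in Pde4d, counted from the start. On either strand AGAACA or TGTTCT occurred in 8 of 27 promoters of the higher genes (29.6%) and 3 of 25 of the lower genes (12.0%), 2 of these 3 being starts of Pde4d, against 6923 of 33469 promoters in the table (20.7%) and 1319 of 10463 of the genes tested (12.6%). The whole element, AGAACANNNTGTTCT, a palindrome that contains both hexamers, was in 0 of these 52 promoters and in 5 of all 33469 (0.0149%). Among the genes counted with the hexamer, Noxo1, Grm8, Cd247 and Anapc10 entered the fit only by differing, as stated above. The shares were not tested. These letters describe the windows and say nothing of binding.

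Above vehicle, Noxo1 (chr10:14226473-14230541, GRCr8), which encodes the organizer subunit of an NADPH oxidase, had the largest mean difference of the same-side genes. Its signal was 26.5 and 21.9 in vehicle and 42.6 and 60.5 in vinclozolin testes at E13, 5 and 27 against 53.8 and 43.2 at E14, and 9 and 7.3 against 22.8 and 19.4 at E16. The difference was 0.82 log2 (95% interval 0.41 to 1.23, 1.76-fold). As the rule requires, all 6 treated values exceeded the vehicle values of their stage. The 4 arrays that reached the 40th percentile were vinclozolin arrays of E13 and E14, and no vehicle array did. The predicted locus LOC102549521 was at 34.1 and 45 in vehicle and 47 and 50.3 in vinclozolin testes at E13, 9.5 and 4.7 against 41 and 40.6 at E14, and 23.4 and 6.8 against 43.5 and 29.1 at E16, a mean difference of 0.77. Most of it came from E14 (1.31), where vehicle was lowest. Grm8, a metabotropic glutamate receptor, was at 8.4 and 3.5 against 54.3 and 12.2 at E13, 18.7 and 21.4 against 26.9 and 50.7 at E14, and 21.2 and 25.4 against 59.6 and 29.2 at E16. In each pair of treated arrays of Grm8 1 array was well above the other, and the mean difference was 0.72 (interval 0.22 to 1.23).

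Slu7 (chr10:28406908-28425253), a splicing factor that acts in choice of the 3' splice site, had a moderate signal on all arrays. It was at 153.3 and 125.6 in vehicle and 218.1 and 241.4 in vinclozolin testes at E13, 183.6 and 161.2 against 212.4 and 213.8 at E14, and 230.5 and 190.4 against 240.5 and 286.8 at E16. The mean difference was 0.42 (interval 0.18 to 0.66), and the other probe set of Slu7 differed by 0.19. Gramd1b, a sterol transfer protein of the endoplasmic reticulum, was at 21.5 and 29 against 43.1 and 29.7 at E13, 41.3 and 76.3 against 83.6 and 84.7 at E14, and 57 and 70.1 against 131.4 and 118.5 at E16, with a difference of 0.54 and a near overlap at E13. Among the brighter members, the secreted matrix protein gene Sparcl1 was at 105.8 and 100.6 against 158.3 and 122.9 at E13, 196.1 and 189.7 against 208.8 and 244.3 at E14, and 164.1 and 218.6 against 258.9 and 227 at E16, a difference of 0.31. These differences were all below 1.5-fold. Cela3b, a gene for a digestive elastase, was brightest at E13 in both treatments: its signal was 319.6 and 317.9 in vehicle testes at E13 and 85.4 and 85.5 at E16, and 373 and 378.5 and then 140.5 and 90.7 in vinclozolin testes, with a mean difference of 0.39. The other named members above vehicle were Lgr6 (0.41), a receptor for R-spondins, Rttn (0.40), a centriole protein, Cd247 (0.40), the zeta chain of the T cell receptor complex, Dgke (0.37), a diacylglycerol kinase, Slc7a7 (0.31), a transporter of cationic amino acids, Cd1d1 (0.30), a lipid-presenting molecule, and a probe set annotated to the locus of Mir351 (0.30), which does not measure the mature microRNA. Cd247 reached the 40th percentile on 2 of the 12 arrays, Lgr6 and Grm8 on 3.

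Below vehicle, Anapc10 (chr19:45057278-45109882), a subunit of the anaphase-promoting complex, had the largest mean difference among those with a gene symbol. Its signal was 45 and 52.6 in vehicle and 20.8 and 25.9 in vinclozolin testes at E13, 73.1 and 37.4 against 14 and 35.5 at E14, and 34.1 and 55.9 against 15.7 and 21.2 at E16. The difference was -0.78 (interval -1.18 to -0.38), with -0.72, -0.81 and -0.81 at the 3 stages. The 4 arrays on which it reached the 40th percentile were all vehicle arrays. The other probe sets of Anapc10, which have more signal, differed by -0.02 and 0.03, so this difference was not a property of all its probes. Pde4d (chr2:41748337-43262567), a phosphodiesterase that degrades cyclic AMP, was at 156.7 and 88.2 against 85.1 and 83.9 at E13, 113.9 and 105.4 against 58.2 and 56.5 at E14, and 116.2 and 129.5 against 102.4 and 51.1 at E16. Its difference was -0.61 (interval -0.96 to -0.26), and its other probe set differed by 0.18. Trim36, a ubiquitin ligase of the tripartite motif family, was at 72.6 and 82.7 against 45.8 and 64.7 at E13, 59.5 and 34.5 against 29.4 and 21.9 at E14, and 57.8 and 50.1 against 21.1 and 29.6 at E16. The difference of Trim36 widened with stage (-0.41, -0.57 and -0.76), but the test of stage dependence did not call it.

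For Apc2, a relative of the Wnt pathway scaffold APC, 1 array decided the size. Its signal was 231 and 217.3 against 187.3 and 132 at E13, 549.8 and 129.2 against 122.5 and 102.1 at E14, and 165.4 and 189.4 against 139.9 and 125.7 at E16. The 549.8 was on the E14 vehicle array numbered 1, the array with high Fos, and the difference of -0.67 had a wide interval (-1.23 to -0.11). Col4a6, a chain of basement membrane collagen IV, was at 108.5 and 110.6 against 82.5 and 95.5 at E13, 96.1 and 66 against 65.3 and 55.9 at E14, and 138.8 and 100.5 against 78.6 and 83.9 at E16. The mean difference of Col4a6 was -0.35, while its other probe set differed by 0.15. The other named members below vehicle were Aldh1l2 (-0.43), a mitochondrial folate enzyme, Kbtbd3 (-0.40), Dusp2 (-0.34), a phosphatase of MAP kinases, LOC102555465 (-0.30), Zfp729b (-0.27), a zinc finger gene, Tbc1d25 (-0.27), which acts on Rab GTPases, Map3k20 (-0.26), a stress kinase, Macir (-0.24) and Irak1bp1 (-0.21). The intervals of Tbc1d25 and Irak1bp1 included 0.

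Other probe sets of the same genes on the same arrays, which the rule had not used, gave 28 measurements for 23 same-side genes. Of these 20 (71.4%) had the sign of the same-side probe set, and 5 had it at all 3 stages. They share RNA and arrays with the probe sets that met the rule, so their signs are not separate evidence. The like share for other genes was not computed. The 3 other probe sets of Alkbh5, an RNA demethylase, were above vehicle by 0.18, 0.26 and 0.24. The 3 of Scd2, a fatty acid desaturase, were below by 0.07, 0.25 and 0.10. Those of Lrpap1, Gpr137, Col4a6, Map3k20, Kbtbd3, Pde4d and Nck2, and 1 of the Anapc10 probe sets, had the opposite sign. The probe set of Lhcgr, the receptor for luteinizing hormone, that met the rule was dim (6.9 to 16.4 on the vehicle arrays other than 1 of E16), and the brighter one, described below, overlapped between treatments at E13 and E14.

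The E13 testes cultured with vinclozolin are separate arrays that the rule did not use. Of the 79 same-side probe sets, 36 (45.6%) had the same sign there as in utero. Among those above vehicle in utero 24 of 48 were above DMSO in culture (50.0%, against 52.1% of all 21128 probe sets), and among those below 12 of 31 were below (38.7% against 47.9%). With flutamide in culture the counts were 21 of 48 (43.8% against 52.1%) and 15 of 31 (48.4% against 47.9%). Noxo1 was at -0.33 in the vinclozolin culture, opposite to its sign in utero, and Slu7 at -0.05. Trim36 was below vehicle in both cultures (-0.78 with vinclozolin, -0.43 with flutamide), and Sparcl1 above in both (0.51 and 0.19). No same-side probe set passed the limma test in either culture; over all probe sets 0 passed with vinclozolin (0%; 544 at an unadjusted p under 0.05) and 1 with flutamide (0.00473%; 1728 at an unadjusted p under 0.05). The cultures had 2 arrays per group, and dose, route and duration differed from the in utero exposure. The vehicle of the vinclozolin culture was DMSO, as in utero, and that of the flutamide culture was ethanol.

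**Figure D3:**
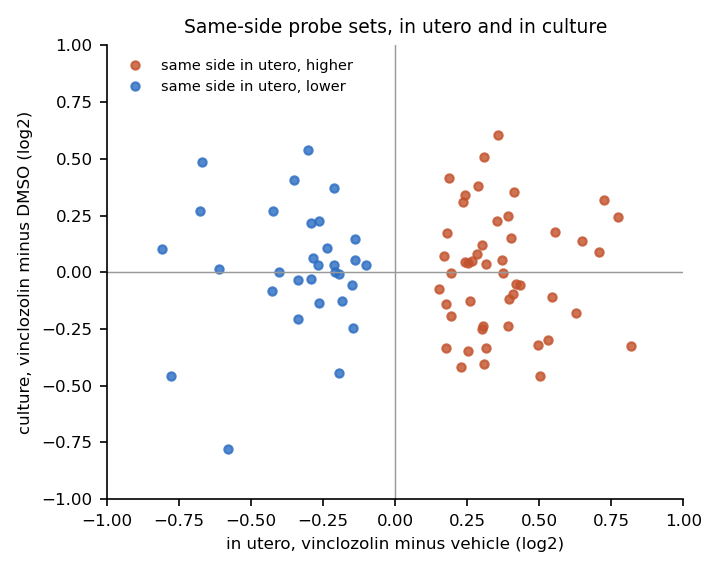
Effect of vinclozolin in utero (log2, mean over 3 stages, 12 arrays) against its effect in cultured E13 testis (vinclozolin minus DMSO, 2 arrays each) for the 79 same-side probe sets. Points of both colours lie on both sides of 0 on the culture axis, with 36 of 79 in the quadrants of equal sign.

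The genes of steroid synthesis, the Leydig cell function that serves androgen action, did not pass the test. Star, which brings cholesterol into mitochondria, was at 91.8 and 78.6 in vehicle and 83.7 and 106 in vinclozolin testes at E13, 63.6 and 55.4 against 73.5 and 101 at E14, and 395.5 and 646.2 against 884.8 and 797.6 at E16. The Star arrays overlapped at E13 and not at E14 or E16, and the mean difference was 0.43 (interval 0.11 to 0.74, unadjusted p = 0.0114, adjusted p = 0.999, limma). Insl3, the Leydig cell hormone of testicular descent, was at or below 33.7 on all E13 and E14 arrays and at 535.5 and 2066.1 against 2638.5 and 2371.3 at E16. Cyp17a1 was likewise low until E16, where it was at 2657 and 6521.8 against 7448 and 6601.3. In each of these genes the E16 vehicle array numbered 1 was the lowest of the E16 arrays. Lhcgr was at 147.5 and 403.6 against 472.1 and 421.6 at E16 by its brighter probe set, in the same order. Cyp11a1, the enzyme of the first step of steroid synthesis, was at 1742.6 and 2236.8 against 2528.9 and 2577.8 at E16, a mean effect over stages of 0.06 (interval -0.27 to 0.38). The mean effects of Hsd3b1 (0.23) and Hsd17b3 (0.37) had intervals that reached below 0. The summed signal of the 5 Leydig markers (Star, Cyp11a1, Cyp17a1, Hsd3b1 and Insl3) at E16 was 10320 and 18113 in vehicle and 18510 to 20110 in vinclozolin testes.

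The list of Leydig cell and steroid genes as a whole had 15 of 16 measured genes with a mean above vehicle and a median of 0.19, where 5243 of all 11301 genes were above and their median was -0.01. The Sertoli list had 17 of 20 above (median 0.23), among them Mro (0.45), Amh (0.41), Inhbb (0.36), an inhibin subunit, and Cldn11 (0.32), a tight junction protein of Sertoli cells. Of the 25 genes in the germ cell list only 8 were measured, and all 8 were above (median 0.31). Among them were Kit (0.42), the receptor for stem cell factor, and Piwil2 (0.36), which acts on small RNAs of the germ line. None of these genes passed the test. At E14 the list medians were 0.27, 0.53 and 0.46. Without the E14 vehicle array numbered 1, 9 of 16, 12 of 20 and 4 of 8 genes were above, with medians of 0.14, 0.07 and 0.09; without both E13 arrays numbered 1 there were 14, 16 and 8, with medians of 0.21, 0.22 and 0.32. Without the E16 vehicle array numbered 1 there were 15, 17 and 7, with medians of 0.13, 0.23 and 0.23. Amh at E14 was at 1553.9 and 5697.9 in vehicle and 5795.5 and 4892.5 in vinclozolin testes, so the treated arrays lay beside the other vehicle array. In whole tissue, a smaller number of cells of a type and less RNA per cell cannot be told apart. Sox9, Ddx4 and Pou5f1 were not analysed here, since no probe set carried their symbol in the annotation used.

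In several lists most members were below vehicle. The interstitial and stromal list had 2 of 16 above (median -0.10), the immediate early genes 3 of 17 (-0.14), Wnt signalling 4 of 19 (-0.10) and retinoic acid 5 of 16 (-0.12). Without the E14 vehicle array numbered 1 these became 5 of 16 (-0.03), 8 of 17 (-0.01), 6 of 19 (-0.05) and 10 of 16 (0.04). The erythroid list had 1 of 13 above (median -0.26), with the hemoglobin gene Hba-a3 at -0.50 and Alas2, the first enzyme of heme synthesis, at -0.40. The macrophage list had 2 of 16 above (median -0.23), with the complement gene C1qc at -0.37 and the adaptor Tyrobp at -0.36. By stage the macrophage median was 0.11 at E13, -0.52 at E14 and -0.25 at E16. Without the E14 vehicle array numbered 1 the medians of the erythroid and macrophage lists were -0.09 and -0.08, with 4 genes above in each. Without the E16 vehicle array numbered 1 they were -0.09 and -0.16. Of the peritubular and smooth muscle genes 3 of 11 were above (median -0.09), and this list kept its median below 0 without the E14 array (-0.15) and without both E13 arrays (-0.10). By stage, however, the median of this list was -0.31 at E13, 0.02 at E14 and -0.21 at E16. Its lowest member Tagln, an actin-binding protein of smooth muscle, was at 408.9 and 232.7 in vehicle and 241.7 and 194.3 in vinclozolin testes at E13, 273.6 and 115.1 against 145 and 101.4 at E14, and 1552.3 and 1351.8 against 1023.6 and 1009.8 at E16. The differences of Tagln were -0.48, -0.50 and -0.50 at the 3 stages (mean -0.50, interval -0.89 to -0.10, unadjusted p = 0.0168, limma), with no overlap at E16. Cnn1, or calponin, had -0.49, -0.15 and -0.48. Acta2, the smooth muscle actin, had a mean of -0.06.

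Genes of androgen signalling differed little. Of 14 measured coregulators and chaperones of nuclear hormone receptors, 9 were above vehicle (median 0.01, range -0.17 for Ncoa4 to 0.10 for Fkbp5), and the 95% intervals of all 14 lay within 1.5-fold. Of 23 genes known to respond to androgen, 13 were above (median 0.04, range -0.26 for Slc45a3 to 0.32 for Cldn11); the intervals of all 23 lay within 2-fold and of 21 within 1.5-fold. Rhox5, a homeobox gene of Sertoli cells that androgen induces, had a mean of 0.26 (interval -0.18 to 0.69). The 25 measured enzymes of DNA methylation and chromatin had intervals within 1.5-fold, with Dnmt1 at -0.01, Dnmt3a at 0.10 and Mbd2 lowest at -0.25. The respiratory chain list was below vehicle in 29 of 33 genes by a small amount (median -0.07); after quantile normalization its median was -0.03, with 10 genes above. Over all 30 lists, the only member whose highest-signal probe set met the same-side rule was Pmvk, an enzyme of cholesterol synthesis (-0.19). Pmvk did not meet the rule after quantile normalization. Of all 11301 genes tested, 44 (0.389%) met it as deposited.

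**Figure D4:**
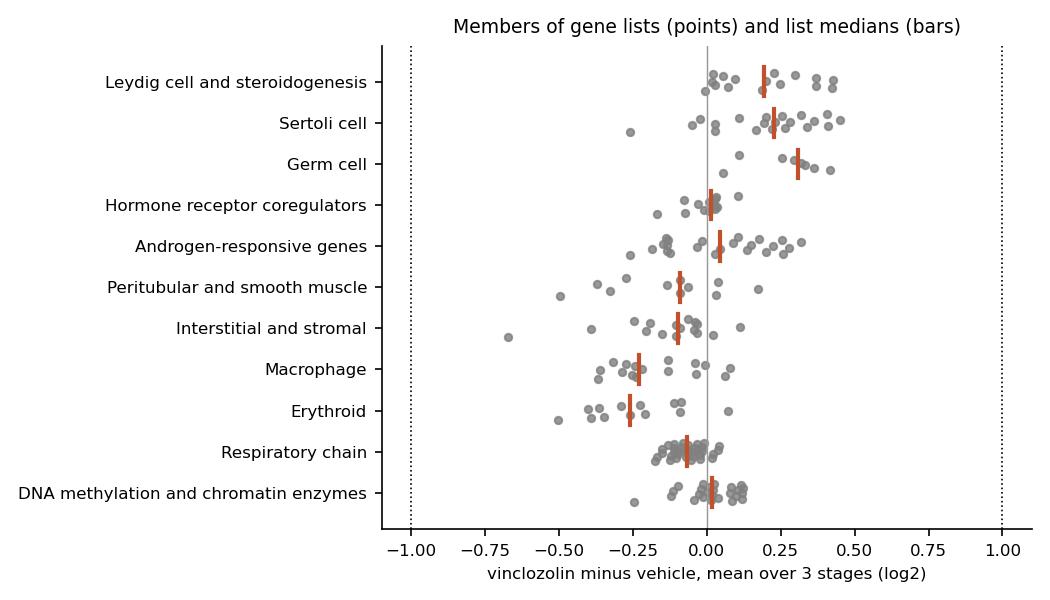
Effect of vinclozolin (log2, mean over 3 stages) of each measured member of 11 gene lists (points, 1 probe set per gene), with the list median as a bar; dotted lines mark 2-fold. No point reaches 2-fold, and the medians run from -0.26 (erythroid) to 0.31 (germ cell).

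For most transcripts the 12 arrays placed a bound on the effect. The 95% interval of the mean effect lay wholly within 2-fold of vehicle in either direction for 20533 of 21128 probe sets (97.2%) and within 1.5-fold for 16681 (79.0%). With a pair of one-sided limma tests against these bounds and adjustment over all probe sets, 20802 (98.5%) passed as within 2-fold and 17739 (84.0%) as within 1.5-fold. The median distance from estimate to interval bound was 0.31 log2, and the median outer bound was 1.32-fold, with 1.86-fold at the 95th percentile. The bound depended on signal: in the 5282 probe sets of lowest signal 2974 intervals (56.3%) lay within 1.5-fold, and in the 5282 of highest signal 5020. It depended also on the 16 added before taking logs, which shrinks the differences of dim probe sets. With 1 added instead, 18741 intervals (88.7%) lay within 2-fold and 13769 (65.2%) within 1.5-fold. These bounds hold for the mean over 3 stages on a scale where every array has the same trimmed mean, so an effect at 1 stage alone, or a shift of all transcripts together, is not bounded by them.

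**Figure D5:**
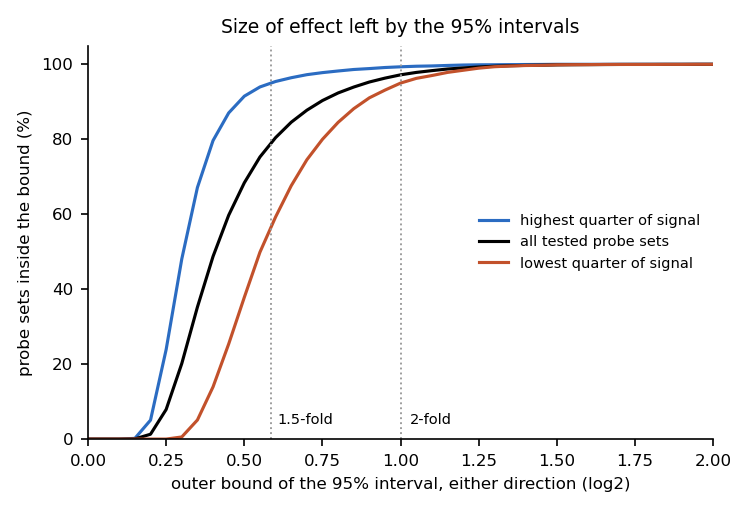
Share of probe sets whose 95% interval of the vinclozolin effect lies inside a bound, plotted against that bound (log2, either direction), for all 21128 probe sets and for the 5282 of lowest and of highest signal. At 1.5-fold 16681, 2974 and 5020 probe sets lie inside, and at 2-fold 20533, 5017 and 5246.

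Of the 21128 intervals, 3 reached beyond 4-fold. Cdh22, a cadherin, was at 804.6 and 35.8 in vehicle and 1312.3 and 1205.8 in vinclozolin testes at E13, 1925.4 and 548.5 against 230.2 and 745 at E14, and 503.5 and 452.7 against 1270.5 and 942.5 at E16, so that its stage differences had opposite signs. RT1-Bb, a class II histocompatibility gene, was at 30.9 and 35.7 against 53.2 and 53.6 at E13, 8.9 and 5.8 against 213.3 and 147.7 at E14, and 14.8 and 2.6 against 18.5 and 7.3 at E16. Its treated and vehicle arrays overlapped at E16. The mean difference of RT1-Bb, 1.27 (interval 0.44 to 2.09, unadjusted p = 0.0054, limma), came from stage differences of 0.50, 3.06 and 0.24. The third, a probe set without a gene symbol, ran from 16.7 to 1236.6 and overlapped between treatments at all stages but 1. Of Xist the interval was -1.70 to 1.82, and of Amh -0.67 to 1.49, so for these genes not even a 2-fold effect was bounded.

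Among probe sets with 1 gene symbol, those of smallest unadjusted p other than the ones already given were above vehicle for Pdgfrb, Cmip, Nid1, Eif4g1, Thra and Abhd6 and below for Ephx2, Mfsd10, Sardh, Stmn2, Sulf2 and Eri1. Pdgfrb, the receptor of PDGF-B on mural and interstitial cells, was at 119.7 and 60.9 in vehicle and 188.2 and 88.6 in vinclozolin testes at E13, 174.2 and 135 against 269.5 and 321.2 at E14, and 39.9 and 68.4 against 257.1 and 161.7 at E16. At 1.02 (interval 0.52 to 1.53, 2.03-fold) Pdgfrb was, with RT1-Bb, 1 of the 2 probe sets beyond 2-fold on average; its arrays overlapped at E13. Thra, a thyroid hormone receptor, was above by 0.49 and Nid1, the basement membrane protein nidogen, by 0.52. Ephx2, the soluble epoxide hydrolase, was at 213.9 and 180.4 against 228 and 119.4 at E13, 314.9 and 363.4 against 128.5 and 108.7 at E14, and 257.1 and 325.5 against 168.5 and 141.7 at E16. Its difference was -0.82 (interval -1.23 to -0.41) and lay at E14 and E16, since the E13 arrays overlapped. Mfsd10, a membrane transporter, was lowest at -0.99 (interval -1.54 to -0.43), with 165.1 and 157.1 against 82.5 and 66.9 at E14 and 49.5 and 100.2 against 18.2 and 29.8 at E16. The E13 arrays of Mfsd10 overlapped, so it did not meet the same-side rule. In the vinclozolin culture Pdgfrb was at -0.48, Nid1 at -0.46 and Ephx2 at 0.30, each opposite to its sign in utero, while Mfsd10 (-0.27) and Sardh (-0.05) had the same sign. With flutamide Pdgfrb was at 0.64 and Nid1 at 0.07, as in utero, and Ephx2 (0.18) and Mfsd10 (0.38) were opposite; none of these passed the test in culture. None of these genes passed adjustment over the table (adjusted p = 0.999 for each, limma).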

How the data were processed

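RNA of 12 rat testis samples was hybridised to Affymetrix rat arrays, 2 per group. The authors deposited linear intensity values from MAS5, per the submitters' processing notes, with no version stated there. The trimmed mean (2% left out at each end) was 210.1 on every array, so no further scaling was applied. Of 31099 probe sets 57 controls were left out, and 21128 that reached the 40th percentile on at least 2 of 12 arrays were tested: 15691 with 1 gene symbol, 356 with several and 5081 with none, per the platform annotation and RefSeq (GRCr8). A gene with several probe sets was represented by the one with the highest mean.

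limma 3.58.1 in R 4.3.3 fitted stage plus treatment to log2(intensity + 16), which understates fold changes of dim genes (residual degrees of freedom 8, prior 5.74). Variances were moderated with a trend. Two-sided p-values were adjusted by Benjamini-Hochberg (threshold 0.05), and intervals are at 95%. The members and the gene lists were chosen with earlier results of these data known. Named genes were the 10 of smallest p per direction among probe sets with 1 symbol, the 12 largest same-side differences per direction among probe sets that represent their gene, 16 fixed genes (1 of them is not reported here) and up to 3 members of smallest p per list; RT1-Bb, Cdh22, Alkbh5, Scd2 and others outside this rule were chosen after their values were seen. Cultures were fitted separately, 4 arrays each. The scripts were checked on simulated data. Alternatives were quantile normalization, pseudocounts of 1 and 64, other filters, other fits, the replicate number as a block, and leaving out arrays or stages. The labels name no batch.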

Additional observations from a re-analysis of the deposited data

Results flagged for a closer look

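For 6 of the 137 genes named by the rules, the side reversed between stages at which the arrays of treated and vehicle testes did not overlap (2 or 3 stages). The same-side rule does not show such a reversal. The difference between stages was not tested gene by gene beyond the moderated F test of stage dependence in limma, which called 0 of 21128 probe sets. Of all 21128 probe sets tested, 2545 had such a reversal, so it was not particular to these genes. All values are vinclozolin minus vehicle, log2. Eif2s3y, a Y-linked translation factor gene, was at 0.30 at E13 and -0.32 at E14. Scarb1, the receptor that takes up cholesterol from lipoproteins, was at -0.20 at E13 and 0.64 at E16. Abcc4, a membrane exporter, was at -0.14 at E13, 0.49 at E14 and 0.48 at E16. Ccne2, a cyclin of the start of DNA replication, was at 0.20 at E13 and -0.52 at E14. Wnt6, a Wnt ligand, was at -0.13 at E13 and 0.28 at E16. Lama1, a laminin chain of basement membranes, was at -0.34 at E13, 0.53 at E14 and 0.73 at E16.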

How the results depend on the processing

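No alternative called any probe set; the smallest adjusted p was 0.239 (without the E13 vinclozolin array numbered 1), 0.30 with all 20 arrays in the fit and 0.494 with 1 mean per group. Of 137 named genes 120 kept their sign in every setting that gave them a value (27, or 26 for 15 dim genes). All 40 genes named by smallest p per direction or by the same-side rule did so, and list members were also chosen by p. This choice favoured kept signs, so the count supports nothing, and the like share for all genes was not computed. Leaving out arrays cannot turn the sign of a same-side gene. A looser rule, an unadjusted p under 0.05 with at least 1.5-fold, took 84 probe sets. The same-side counts (48 higher, 31 lower) were 26 and 48 after quantile normalization, 86 and 57 with no filter, and 30 higher with a filter at the median. They were 71 to 211 higher and 49 to 164 lower without 1 array, 693 and 443 without E13, 558 and 462 without E14, 180 and 150 without E16, and 256 and 147 without both E13 arrays numbered 1 (chosen after seeing the data). Fewer arrays ease the rule by construction, and each of these settings kept all 79. The looser sign rule gave 2590 and 2329, and a gap of 0.2 gave 1 and 1. Intervals within 2-fold numbered 20092 to 20576 without 1 array, and within 1.5-fold 15300 to 16684. The correlation of the treated and vehicle replicate differences was 0.63 at E13, where the arrays numbered 1 also shared high Xist and low Amh, -0.06 at E14 and -0.12 at E16, so the numbers went together at E13 and not at the other stages, and were not taken as pairs. With the replicate block 0 probe sets were called, 875 had an unadjusted p under 0.05, and 20801 intervals lay within 2-fold; with the E16 numbers crossed (chosen after seeing the data) 0 were called. With 2 arrays per group, a 2-fold effect at a single stage is not bounded as it is for the mean, and dim probe sets are bounded least.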
